A study of Rattus norvegicus with 18 samples.

Results

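The Id genes encode the inhibitors of DNA binding, and the deposited table of rat epiblast and germ cell RNA holds 4 of them, Id1, Id2, Id3 and Id4. They were taken by gene symbol as 4 of the 32545 lines of the table (identifiers ENSRNOG00000021750, ENSRNOG00000007237, ENSRNOG00000026124 and ENSRNOG00000016099). All 4 were among the 14865 lines that reached 1 RPKM in 2 or more libraries and were tested. RPKM divides the reads of a gene by its length and by the number of reads mapped in a library, so levels of different genes can be set side by side. RNA was sequenced in 18 libraries from rat embryos of the strain Crlj:WI, and every group, epiblast included, carried the genotype Prdm14-Venus, a fluorescent reporter of the germ line regulator Prdm14. Epiblast, the pluripotent layer of the early embryo, was sampled at embryonic day (E) 7.25 and E7.75, with 3 libraries a day. Of these, 2 were labelled male and 1 female on each day. Primordial germ cells (PGC), the precursors of sperm and eggs, were sampled on 5 days with 2 libraries to a group. The groups of E9.5, of E10.5, of E11.5 and of E12.5 have no sex in the labels, and at E15.5 males and females are separate groups. How cells were sorted, how many embryos went into a library, and whether replicates came from separate litters is not stated in the labels. The p-values therefore rest on the spread among these libraries alone, and part of it may be technical.

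Bone morphogenetic proteins (BMPs) bind paired type I and type II receptors, which phosphorylate SMAD1, SMAD5 and SMAD9, and these enter the nucleus with SMAD4 to switch on target genes. Id genes are among the most direct of those targets and are widely read as a sign of BMP signalling, and in rodents BMP4 from tissue outside the epiblast is required for germ cells to form. ID proteins have a helix-loop-helix but no DNA-binding region, and by pairing with E proteins they keep them from activating genes with tissue-restricted helix-loop-helix partners.

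Id1 and Id2 rose and fell together across the series while Id3 followed a different course. The sequences just upstream of their starts are shown as a description. All 4 genes were matched by symbol in the RefSeq promoter table of the build GRCr8. Within the 250 bases before each start, 8 short motifs were searched on both strands. The sequences below run 5′ to 3′ along the gene's strand, and the capitals mark TATAAA and CCAAT or its reverse complement ATTGG. For Id1 and Id3 the 39 and 38 bases nearest the start are left out, since the annotation puts them inside the gene. Distances below are counted from the start in the promoter table. For Id1 and Id3 they are therefore 39 and 38 bases longer than from the annotated start of the gene.

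Id1, chr3:161671314-161671524, plus strand: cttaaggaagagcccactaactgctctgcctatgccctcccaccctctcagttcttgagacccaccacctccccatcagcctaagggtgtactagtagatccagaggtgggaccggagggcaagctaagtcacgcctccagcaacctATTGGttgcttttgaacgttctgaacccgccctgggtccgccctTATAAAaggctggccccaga

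Id2, chr6:47470996-47471245, minus strand: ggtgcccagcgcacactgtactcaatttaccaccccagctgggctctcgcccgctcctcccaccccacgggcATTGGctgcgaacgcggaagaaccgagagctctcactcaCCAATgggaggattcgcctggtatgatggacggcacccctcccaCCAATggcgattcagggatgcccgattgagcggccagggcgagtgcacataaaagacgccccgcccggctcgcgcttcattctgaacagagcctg

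Id3, chr5:153656041-153656252, plus strand: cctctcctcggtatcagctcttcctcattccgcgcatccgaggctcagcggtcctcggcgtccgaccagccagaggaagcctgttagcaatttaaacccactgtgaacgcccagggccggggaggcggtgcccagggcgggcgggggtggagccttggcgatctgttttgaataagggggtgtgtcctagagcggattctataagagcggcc

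The Id1 window held TATAAA 59 bases before the start in the promoter table, a motif found in 12.9% of its 33469 promoters. It also held 1 CCAAT match, at 103 bases, and the Id2 window held 3, at 178, 139 and 95 bases, against 34% of all promoters with at least 1. Neither motif was found in the windows of Id3 and Id4. The letters GGGCGG, known as the GC box, occurred in all 4 windows (2 matches for Id1, 1 for Id2, 2 that overlap for Id3 and 1 for Id4) and in 30.5% of promoters. CANNTG, the E-box, had 1 match each for Id1 and Id2, and 65.5% of promoters held it. That of Id1, 9 bases before the start in the promoter table, lies inside the annotated gene, in the stretch not printed above. Letters associated with BMP-responsive or SMAD-bound elements (GGCGCC, in 8.69% of promoters; GTCTAGAC, in 0.173%; CAGAC, in 42.9%) and the cAMP-response core TGACG (18.2%) had no match in these windows. The BMP-responsive element of Id1 is known to lie farther upstream, which was not analysed here. Whether any of these motifs bears on the courses of the Id genes was not tested.

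Before the Id values, some facts of the libraries bear on them. Summed over 8 PGC markers, RPKM lay between 5.56 and 20.0 in epiblast and between 422.9 and 850.3 in PGC. Over 5 epiblast markers the sums lay between 3091 and 4295 in epiblast and between 454 and 2380 in PGC. The sums thus went with the labels, but not every marker did. Dppa3 had 0.106 and 31.3 RPKM at E9.5, 85.7 and 81.7 RPKM at E12.5, and at most 0.537 RPKM at E10.5, E11.5 and in male E15.5. Itgb3 was at 0 at E10.5, E11.5, E12.5 and in male E15.5. Of the epiblast markers, Fgf5 was at 0 in every library, epiblast included. Otx2, Pou3f1 and Sox3, also chosen as epiblast markers, had no line under these symbols and are not in the sums. Sequencing depth, estimated from repeated ratios of low values, was 82.6% to 120.9% in 14 libraries, with the library of female E7.75 epiblast set to 100%. It was 22.1% to 22.9% in E10.5 replicate 2 and both E11.5 libraries, and gave no clear value in E10.5 replicate 1. The library labelled E7.25 epiblast male replicate 2 was listed at 0 RPKM for the Y-linked genes Eif2s3y, Kdm5d and Uty, where the other libraries labelled male had 117.5 to 165.8 RPKM of Eif2s3y, so it goes against its label. The libraries labelled male and female at E15.5 fit theirs, with 135.5 and 151 RPKM of Eif2s3y against 0 and 0.133. Ddx3y, also Y-linked, did not separate the labels. It had 10.5 to 25.3 RPKM in libraries labelled male and 8.33 to 17.7 RPKM in those labelled female. At E9.5, where sex is not labelled, replicate 1 had 16.4 and replicate 2 had 122 RPKM of Eif2s3y. In such bulk libraries, fewer cells of a type and less RNA per cell cannot be told apart.

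Id1, a classical immediate BMP target, had the widest range of the 4 in RPKM. In E7.25 epiblast it measured 209.9, 217 and 251 RPKM, and in E7.75 epiblast 37.4, 73.7 and 69.95 RPKM. At E9.5 the PGC libraries had 645.5 and 432 RPKM, at E10.5 398 and 265 RPKM, at E11.5 90.6 and 99.3 RPKM, and at E12.5 65.2 and 69.0 RPKM. Male E15.5 PGC then had 29.4 and 31.0 RPKM and female E15.5 PGC 957 and 1190 RPKM, the lowest and the highest values of the gene in the series. Ordered by group mean, Id1 ran from female E15.5 through E9.5, E10.5, E7.25, E11.5, E12.5 and E7.75 to male E15.5, and of the neighbours in this order only E12.5 PGC and E7.75 epiblast overlapped. Here and below overlap is a description, as the share of all tested genes without overlap was not counted.

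Id2, which besides its role downstream of BMP is known for its part in lymphoid and mammary development, followed the same order of groups at lower levels, with no overlap between any neighbours. It measured 129, 119.7 and 125.5 RPKM in E7.25 epiblast and 36.8, 47.8 and 30.1 RPKM in E7.75 epiblast. In PGC it measured 329 and 234 RPKM at E9.5, 217 and 162 RPKM at E10.5, 63.7 and 57.2 RPKM at E11.5, and 50.7 and 52.3 RPKM at E12.5. Male E15.5 PGC had 29.3 and 14.6 RPKM and female E15.5 PGC 402 and 498 RPKM.

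Id3, another direct BMP target, was the most abundant member by mean in every group, and its group means lay closest together in fold. Its levels were 298, 348 and 341 RPKM in E7.25 epiblast and 215, 191 and 266 RPKM in E7.75 epiblast. PGC had 619 and 541 RPKM at E9.5, 1081 and 952.5 RPKM at E10.5, 577 and 632 RPKM at E11.5, and 581 and 656 RPKM at E12.5. At E15.5 the male libraries had 484 and 483 RPKM and the female libraries 1081 and 1330 RPKM. All 12 PGC libraries were above all 6 epiblast libraries. Female E15.5 and E10.5 overlapped at the top of the order, E12.5, E11.5 and E9.5 overlapped with each other in the middle, and the 2 epiblast days stood lowest.

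Id4, known for its place in the stem cells of the adult male germ line, was by far the scarcest. It lay between 0 and 3.22 RPKM in E7.25 epiblast and between 0.150 and 4.10 RPKM in E7.75 epiblast. It measured 44.0 and 38.4 RPKM at E9.5, 32.5 and 24.8 RPKM at E10.5, 8.89 and 2.50 RPKM at E11.5, and 8.12 and 7.55 RPKM at E12.5. Male E15.5 PGC had 4.57 and 2.63 RPKM and female E15.5 PGC 27.6 and 31.95 RPKM. The 3 groups above 20 RPKM (E9.5, female E15.5 and E10.5) stood clear of the other 5, which overlapped one another along the order.

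**Figure D1:**
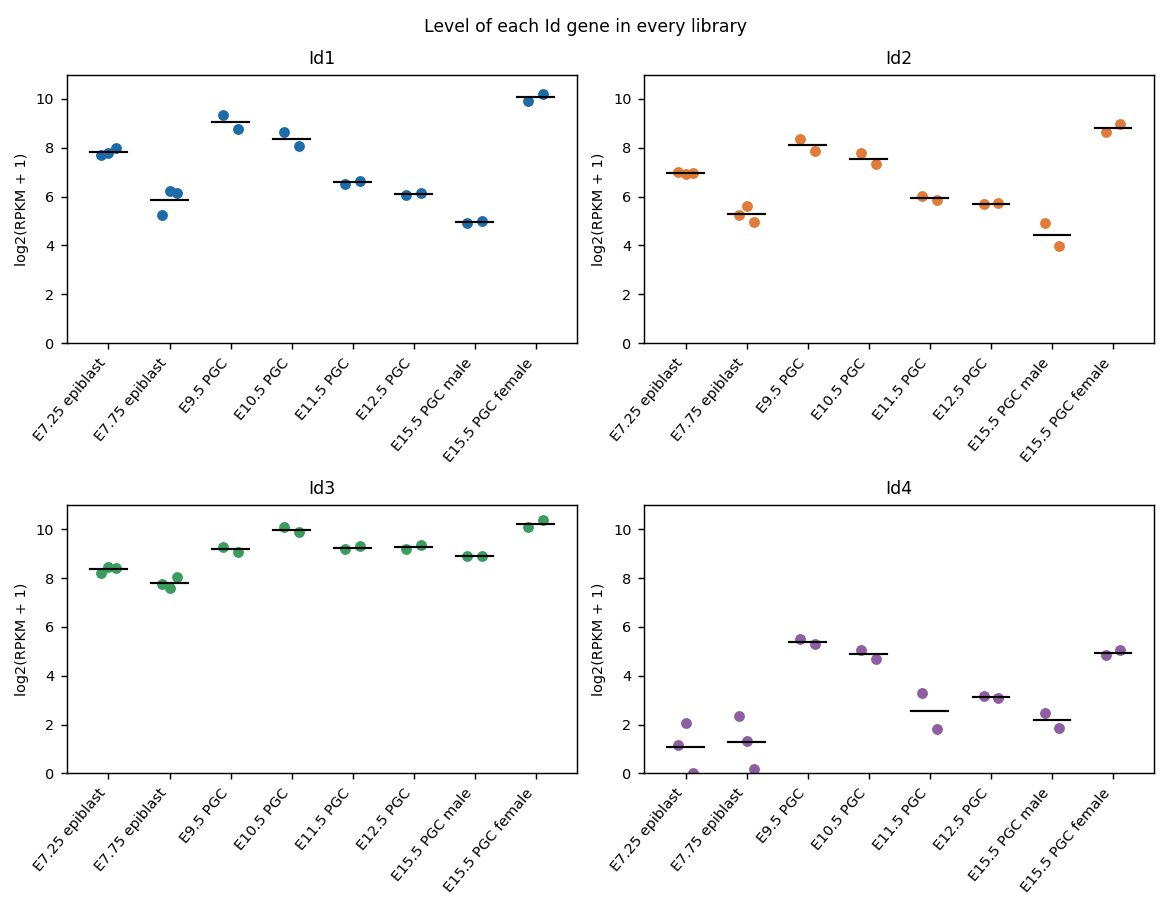
Level of Id1, Id2, Id3 and Id4 as log2(RPKM + 1) in each of the 18 libraries (points), by group, with the group mean as a line. Id1 and Id2 fall from E9.5 to male E15.5 and are high again in female E15.5, while Id3 is at 483 RPKM or more in every PGC library.

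The makeup of the Id transcripts shifted with these courses. Id3 made up 46.7% to 50.6% of the summed Id RPKM in E7.25 epiblast and 60.8% to 73.3% in E7.75 epiblast. In PGC its share was 37.8% and 43.4% at E9.5, 62.5% and 67.8% at E10.5, 78.0% and 79.9% at E11.5, 82.4% and 83.6% at E12.5, and 88.4% and 90.9% in male E15.5. In female E15.5 PGC it was 43.8% and 43.6%, where Id1 held 38.8% and 39.01%, against 5.37% and 5.83% for Id1 in male E15.5. Male E15.5 thus had the highest and E9.5 the lowest Id3 share, and female E15.5 lay near E7.25 epiblast and E9.5.

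**Figure D2:**
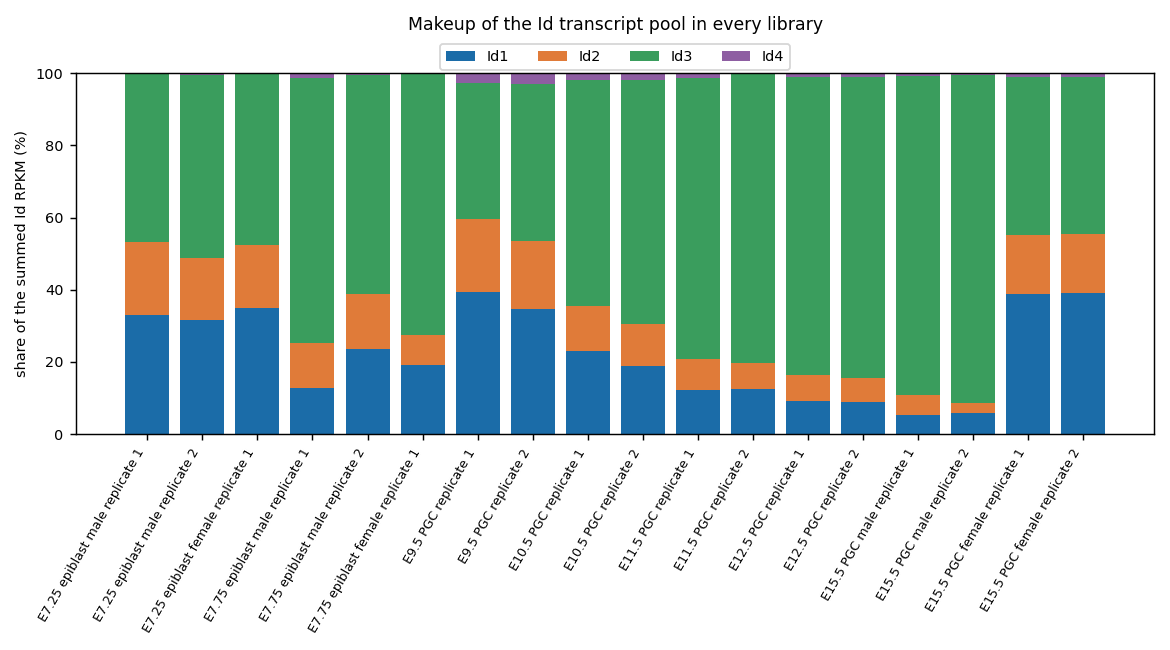
Share of each Id gene (percent) in the summed RPKM of the 4 Id genes, 1 bar for each library. The Id3 share grows from 37.8% and 43.4% at E9.5 to 88.4% and 90.9% in male E15.5 PGC and is 43.8% and 43.6% in female E15.5 PGC.

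Changes between groups were tested with limma on log2(RPKM + 1) over all 14865 genes, with Benjamini-Hochberg adjustment and a threshold of 0.05, and every adjusted p given is from this test. Fold changes are on that scale, which understates changes of scarce genes such as Id4. Each is given with its standard error (SE). Consecutive comparisons share libraries, so their values are not independent of each other.

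From E7.25 to E7.75, Id1 and Id2 fell in epiblast. The mean of Id1 went from 226 ± 21.7 to 60.4 ± 20.0 RPKM (SD, n = 3 each), a log2 change of -1.94 ± 0.23 (adjusted p = 0.00292), and that of Id2 from 125 ± 4.87 to 38.2 ± 8.93 RPKM, a change of -1.71 ± 0.23 (adjusted p = 0.00707). No library of E7.75 reached the level of any library of E7.25 for either gene. Id3 differed in the same direction without passing (-0.56 ± 0.12, adjusted p = 0.104), and Id4 was near the floor on both days. Of all tested genes, 0.168% passed as lower and 0.101% as higher, 40 genes in all, with Id1 and Id2 among them. With only these 6 libraries in the fit, neither gene passed (adjusted p = 0.169 and 0.111).

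At E9.5 all 4 members were higher than in E7.75 epiblast, each with no overlap between libraries. The share of all tested genes without overlap at this step was not counted. Id1 rose by 3.17 ± 0.26 (adjusted p = 9.33e-07), Id2 by 2.85 ± 0.25 (adjusted p = 2.3e-06), Id3 by 1.38 ± 0.14 (adjusted p = 7.81e-06) and Id4 by 4.10 ± 0.63 (adjusted p = 0.000262) on the log2 scale. In RPKM the group means stood 8.93-fold, 7.35-fold, 2.59-fold and 21.5-fold apart. Among all tested genes 16.3% passed as higher and 11.3% as lower, and under quantile normalization the higher share of calls was 48.3% in place of 59.0%. The E9.5 libraries also held RNA of genes that mark other cells. Of 10 markers of allantois and extraembryonic mesoderm, 10 reached a mean of 1 RPKM, with sums of 552 and 563 RPKM against 4.05 to 9.09 RPKM at E7.75. That list holds Hand1, Hand2, Tbx20 and Bmp4, which also stand in the pathway lists below, as do Twist1 of the mesenchyme and Tal1 of the endothelial markers. The sum of 10 mesenchyme markers was 176.5 and 179 RPKM, with Col1a2 and Dcn at 0, against at most 5.82 RPKM at E7.75. Sums over 11 endothelial markers were 104.8 and 231 RPKM, with none at 0 in both libraries, against at most 10.7 RPKM. For 9 gut and surface epithelium markers they were 380.2 and 515 RPKM against 115.9 to 134 RPKM. Of the tested markers, 9 of 10 of allantois and extraembryonic mesoderm, 6 of 8 of mesenchyme and 4 of 9 of endothelium passed as higher. Of 8 tested gut and surface epithelium markers 3 passed as higher and 1 as lower. These counts are partly set by the filter. Immediate early genes, which respond quickly to handling and dissociation, summed over 11 genes to 320.2 and 323 RPKM against 28.2 to 58.4 RPKM, and 8 of the 11 rose. The part of these genes and cells in the Id levels at E9.5 was not tested.

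Over all PGC groups, weighted equally, against both epiblast days, all 4 genes passed as higher in PGC, but they did so in 2 ways. The epiblast libraries ranged from 191 to 348 RPKM of Id3 with a median of 282 RPKM, and the PGC libraries from 483 to 1330 RPKM with a median of 625.5 RPKM, a log2 difference of 1.39 ± 0.08 (adjusted p = 2.27e-09). For Id4 the epiblast libraries reached 4.10 RPKM with a median of 1.36 RPKM, the PGC libraries ranged from 2.50 to 44.0 RPKM with a median of 16.8 RPKM, and the difference was 2.66 ± 0.34 (adjusted p = 1.33e-05). Id1 (0.67 ± 0.14, adjusted p = 0.00102) and Id2 (0.64 ± 0.14, adjusted p = 0.00117) also passed, but their PGC libraries lay on both sides of the epiblast values, from 29.4 to 1190 RPKM of Id1 with a median of 182 against 142 RPKM. Without the female E15.5 libraries, an alternative chosen after seeing the data, Id1 was 0.16 (adjusted p = 0.395) and Id2 0.23 (adjusted p = 0.196). Without E9.5 they were 0.36 and 0.37 and still passed, and Id3 and Id4 passed either way. In this comparison 32.1% of all tested genes passed as higher and 26.4% as lower.

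From E9.5 to E10.5 the members parted. Id3 rose by 0.81 ± 0.15 (adjusted p = 0.0013), from 580.1 ± 55.7 to 1017 ± 90.8 RPKM (SD, n = 2 each). Id1 (-0.70 ± 0.28, adjusted p = 0.0785), Id2 (-0.56 ± 0.28, adjusted p = 0.149) and Id4 (-0.52 ± 0.69, adjusted p = 0.629) did not pass. The calls of Id1, Id2 and Id3 changed under quantile normalization and held under median ratio scaling, and that of Id4 held under both. The E10.5 columns sum to more RPKM than the others, and the median gene stood at -0.16. Under quantile normalization Id3 changed by 0.20 (adjusted p = 0.296), while Id1 changed by -1.21 (adjusted p = 0.00188) and Id2 by -0.89 (adjusted p = 0.0162). Of all tested genes 11.5% passed as higher and 18.4% as lower, so 38.5% of calls were higher, against 51.7% under quantile normalization. Id1 also passed without E7.75 male replicate 1 (-0.70, adjusted p = 0.0216), without E9.5 replicate 2 (-0.99, adjusted p = 0.0456) and without E10.5 replicate 1 (-0.99, adjusted p = 0.0455). Markers of other cells fell at the same step, namely 8 of 10 tested of the allantois and extraembryonic mesoderm list, 6 of 8 of mesenchyme, 5 of 9 of endothelium and 3 of 8 of gut and surface epithelium, as did 6 of 11 immediate early genes. The marker counts are partly set by the filter, which genes seen mainly at E9.5 also passed. Of the allantois list 10 genes averaged 1 RPKM or more at E9.5 and 3 at E10.5, and of the mesenchyme list 6 and 1. The part of these markers and immediate early genes in the Id changes was not tested.

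From E10.5 to E11.5 Id1 fell by 1.77 ± 0.28 (adjusted p = 0.00317), Id2 by 1.62 ± 0.28 (adjusted p = 0.00468) and Id3 by 0.75 ± 0.15 (adjusted p = 0.0113). Id4 had a change of -2.32 ± 0.69 (adjusted p = 0.0581). Library ranges did not overlap for any of the 4, a trait not counted over all tested genes. Here 3.61% of all tested genes passed as lower and 3.59% as higher. The Id3 change was -0.23 under quantile normalization (adjusted p = 0.358), and it also failed to pass without E10.5 replicate 1 or without E11.5 replicate 1. With only these 4 libraries in the fit none of the 3 passed (adjusted p = 0.147 to 0.186). E10.5 replicate 2 and both E11.5 libraries are the shallow ones.

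Between E11.5 and E12.5 the levels stayed close. The log2 changes were -0.49 for Id1, -0.23 for Id2, 0.03 for Id3 and 0.59 for Id4, none passed in limma (adjusted p = 0.353 to 0.982), and at an unadjusted p under 0.05 the count was 0 as well. Of all tested genes 4.12% passed as higher and 3.09% as lower. Set directly against E9.5, E12.5 PGC were lower by -2.96 ± 0.28 for Id1 (adjusted p = 6.07e-06) and -2.41 ± 0.28 for Id2 (adjusted p = 3.02e-05). Id4 was lower by -2.26 ± 0.69 (adjusted p = 0.0285), a call that was lost without any 1 of the 4 libraries. Id3 differed by 0.09 ± 0.15 (adjusted p = 0.724). In that comparison 11.3% of all tested genes passed as higher and 11.9% as lower. Lower at E12.5 were also 8 of 10 allantois and extraembryonic mesoderm markers, 6 of 8 of mesenchyme, 4 of 9 of endothelium and 3 of 8 of gut and surface epithelium, while 7 of 11 immediate early genes were higher and 1 lower. The counts of lower markers of other cells are again partly set by the filter, which genes seen mainly at E9.5 also passed. The part of the markers and immediate early genes in the Id differences was not tested.

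**Figure D3:**
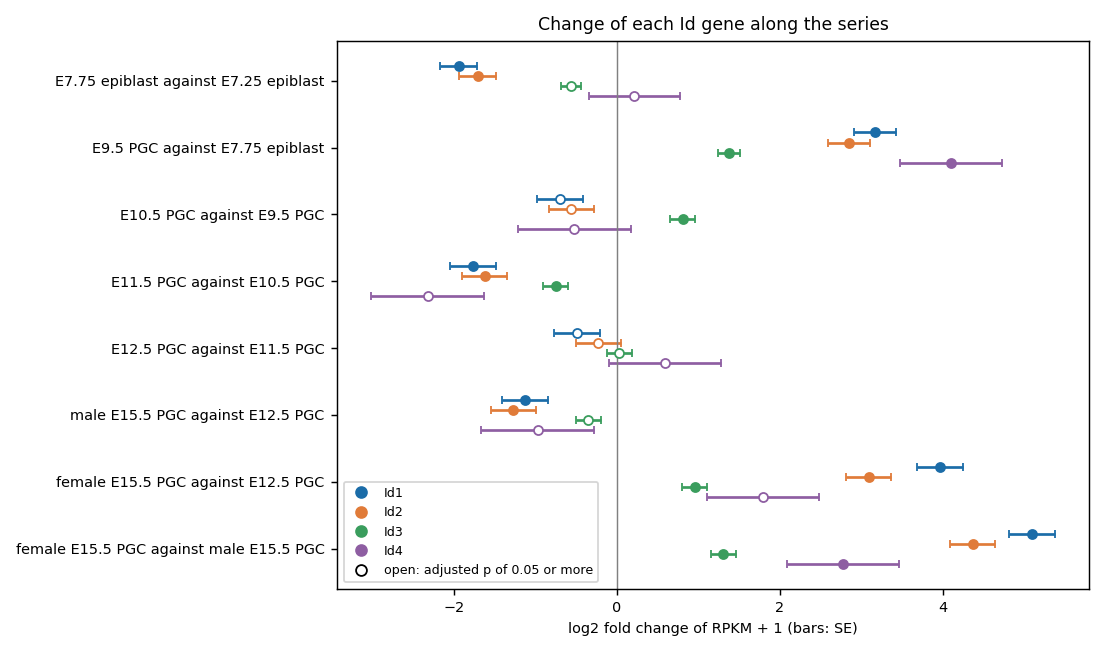
Log2 fold change of RPKM + 1 (horizontal axis) of Id1, Id2, Id3 and Id4 in 8 comparisons along the series, with bars for the SE and open points for an adjusted p of 0.05 or more. The largest differences are those between female and male E15.5 PGC, 5.10 for Id1 and 4.37 for Id2.

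At E15.5 every Id gene stood higher in the female PGC than in the male ones, with no overlap between libraries. How many of all tested genes also had no overlap between the sexes was not counted. The group means of Id1 were 1073 ± 165 RPKM in females and 30.2 ± 1.15 RPKM in males (SD, n = 2 each), 35.5-fold apart. Those of Id2 were 450 ± 68.2 and 21.9 ± 10.4 RPKM, 20.5-fold apart, those of Id4 29.8 ± 3.05 and 3.60 ± 1.37 RPKM, 8.27-fold apart, and those of Id3 1206 ± 176 and 484 ± 0.61 RPKM, 2.49-fold apart. The log2 differences were 5.10 ± 0.28 for Id1 (adjusted p = 1.43e-07), 4.37 ± 0.28 for Id2 (adjusted p = 5.98e-07), 1.31 ± 0.15 for Id3 (adjusted p = 0.000132) and 2.77 ± 0.69 for Id4 (adjusted p = 0.0208). Of all tested genes 4.33% passed as higher in females and 5.35% as lower. Ranked by the size of the rise, Id1 was at place 6 and Id2 at place 11 of 14865, Id4 at place 55 and Id3 at place 658. The Id4 call was lost without any 1 of the 4 libraries. With only these 4 libraries in the fit the adjusted p was 0.0718 for Id1, 0.0844 for Id2, 0.103 for Id3 and 0.0977 for Id4, and no gene of the table passed in limma, with 3183 at an unadjusted p under 0.05.

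Relative to E12.5, the sexes moved apart in opposite directions. These comparisons were added after the values had been seen, and the E12.5 libraries, with 33.4 and 30.01 RPKM of Eif2s3y, have no sex label. Male E15.5 PGC were lower than E12.5 PGC by -1.13 ± 0.28 for Id1 (adjusted p = 0.0235) and by -1.27 ± 0.28 for Id2 (adjusted p = 0.0112), in which 3.58% of all tested genes passed as higher and 5.15% as lower. Id3 (-0.35) and Id4 (-0.97) did not pass. The Id1 call was lost without any 1 of the 4 libraries, and the Id2 call without either E12.5 library or male replicate 2. Female E15.5 PGC were higher than E12.5 PGC by 3.97 ± 0.28 for Id1 (adjusted p = 7.45e-07), 3.09 ± 0.28 for Id2 (adjusted p = 6.47e-06) and 0.96 ± 0.15 for Id3 (adjusted p = 0.000661). Id4 was at 1.80 ± 0.69 (adjusted p = 0.0872). Here 8.6% of all tested genes passed as higher and 9.84% as lower. With the sexes averaged, as planned, Id1 was 1.42 ± 0.24 (adjusted p = 0.00143) and Id2 0.91 ± 0.24 (adjusted p = 0.0198) above E12.5, Id3 (0.30) and Id4 (0.41) did not pass, and 6.81% of all tested genes passed as higher and 8.27% as lower. That average stands for neither sex.

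In epiblast no Id gene passed between the libraries labelled female and those labelled male. With E7.25 and E7.75 weighted equally, the log2 difference of female against male was 0.32 for Id1, -0.23 for Id2, 0.23 for Id3 and -1.63 for Id4. None passed in limma (adjusted p = 0.730 to 1), the count at an unadjusted p under 0.05 was 1 (Id4), and 0.0135% of all tested genes passed as higher and 0.0471% as lower. Without the library labelled E7.25 male replicate 2 these differences were 0.33, -0.25, 0.29 and -1.39. The difference between the sex differences of E15.5 PGC and epiblast, also added after the values had been seen, was 4.78 ± 0.38 for Id1, 4.59 ± 0.37 for Id2, 1.07 ± 0.18 for Id3 and 4.40 ± 0.67 for Id4. All 4 passed in limma (adjusted p = 7.09e-05 for Id1 and Id2, 0.0103 for Id3 and 0.00611 for Id4), as did 1.22% of all tested genes as higher and 1.7% as lower. Cell type and age change together in that contrast and cannot be told apart.

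Markers of other cells were measured in both sexes at E15.5. Of 10 gonadal somatic markers the sum was 8.52 and 8.61 RPKM in males and 3.22 and 5.09 RPKM in females, with Foxl2, a gene of ovarian supporting cells, at 0 in all 4 libraries and Amh, a gene of Sertoli cells, at 2.11 ± 1.54 RPKM in males and 0 in females. Of the 6 tested gonadal somatic markers 1 passed, as lower in females. The sums of 11 endothelial markers were at most 5.12 RPKM and those of 10 mesenchyme markers at most 25.05 RPKM in males and 8.38 RPKM in females. The allantois and extraembryonic mesoderm list, which holds the BMP target Hand1, summed to 33.0 and 37.3 RPKM in males and 45.4 and 53.0 RPKM in females, and 1 of its 10 genes passed, as higher in females. The 9 gut and surface epithelium markers summed to 52.2 and 54.3 RPKM in males and 39.9 and 51.2 RPKM in females, and 1 of the 8 tested, the keratin gene Krt18, passed, as higher in females (1.12, adjusted p = 0.03005). Summed PGC markers were 428.5 and 469 RPKM in males and 526 and 561 RPKM in females, and 1 of the 7 tested passed, as higher in females. The 11 immediate early genes had sums of 681 and 700 RPKM in males and 276 and 328 RPKM in females, and 905 and 989 RPKM at E12.5. Of these 11 genes 5 were lower in females and none higher, where 5.35% of all tested genes were lower and 4.33% higher. The part of these genes in the Id levels was not tested.

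Upstream of the Id genes, the 4 tested BMP ligands rose at E9.5, and at E15.5 only 2 receptor genes among the tested ligands, receptors and SMADs passed between the sexes. Of 14 BMP ligands 4 passed the filter. Bmp4, which in the embryo instructs germ cell fate, was at 5.86 ± 2.35 RPKM in E7.75 epiblast (n = 3), at 150.5 ± 12.7 RPKM at E9.5, 199 ± 2.46 RPKM at E10.5, 178 ± 4.18 RPKM at E11.5 and 142 ± 16.3 RPKM at E12.5. It then stood at 22.7 ± 2.03 RPKM in male and 21.1 ± 3.97 RPKM in female E15.5 PGC (n = 2 in each PGC group). Its change from E7.75 to E9.5 was 4.53 and that of Bmp7, a ligand of the same family, 5.22. All 4 tested ligands rose at that step, where 16.3% of all tested genes did. Ligands averaging 1 RPKM or more numbered 4 at E9.5, 3 at E7.25, 1 at E7.75 and 2 in each later PGC group. The count of rises at E9.5 is thus partly set by the filter. Between the sexes at E15.5, Bmp4 differed by -0.11 (adjusted p = 0.916) and Bmp7 by -1.17 (adjusted p = 0.0737). All 8 receptor genes were tested. At E9.5, 6 of them rose and 2 fell, where 16.3% of all tested genes rose and 11.3% fell. The largest rise was that of the type II receptor Bmpr2 (2.04, adjusted p = 0.000759), and Acvr2b, another type II receptor and the most abundant of the 8, fell by 0.56 (adjusted p = 0.00989). At E10.5, where 11.5% of all tested genes rose and 18.4% fell, 5 receptor genes fell, with the co-receptor gene Eng at -2.09 (adjusted p = 0.00565), and Acvr2b rose by 0.60 (adjusted p = 0.0102). Between the sexes at E15.5 the type I receptor Bmpr1a was higher in females by 0.92 (adjusted p = 0.0415) and Acvr2b lower by -0.90 (adjusted p = 0.00253). In that comparison 4.33% of all tested genes passed as higher and 5.35% as lower. Of the SMADs, Smad9 was below the filter. Smad5 rose at E9.5 by 0.82 (adjusted p = 0.0455), and at E15.5 Smad1 (-0.89, adjusted p = 0.189), Smad4 (-0.37) and Smad5 (0.56) did not pass between the sexes.

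Among other known BMP target genes, most rose at E9.5 and many fell at E10.5 and E11.5. Of 14 listed, 13 were tested. Between the epiblast days, where Id1 and Id2 fell, none of the 13 passed in limma (median -0.04, against 0 over all tested genes), and 2, Bambi (-0.67) and Hey1 (0.67), had an unadjusted p under 0.05. Of all tested genes only 0.168% passed as lower and 0.101% as higher there. With so few calls, none among 13 tells little. At E9.5, 12 rose and none fell, with a median log2 change of 3.63 against 0.04 over all tested genes. Of all tested genes 16.3% rose and 11.3% fell at that step. Atoh8, at 1.35 and 5.46 RPKM at E9.5 and under 1 RPKM in every other library, was tested only through E9.5. The count and median at E9.5 are thus partly set by the filter. Hand1, a factor of extraembryonic mesoderm and heart, had the largest rise, and was listed at 0 in every E7.75 library and at 261 and 245 RPKM at E9.5. Msx1 and Msx2, homeobox genes, rose by 6.82 and 7.12, and Bambi, a decoy receptor that damps BMP signalling, by 4.22. At E10.5, where Id1 and Id2 did not pass, 9 fell, with Msx1 at -2.94 and Hand1 at -2.88, and 18.4% of all tested genes fell. At E11.5, 6 fell (Bambi, Dlx3, Gata3, Hand1, Msx1 and Msx2), where 3.61% of all tested genes did. Msx1, which rose by 2.50, was the 1 that changed at E12.5, where 4.12% of all tested genes rose and 3.09% fell. In male E15.5 against E12.5 PGC 1 of the 13 was lower and none higher (5.15% and 3.58% of all tested genes). In female E15.5 against E12.5 PGC 6 were higher and none lower (8.6% and 9.84% of all tested genes).

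In female against male E15.5 PGC, 7 of the 13 rose and none fell, with a median of 1.69 against 0 over all tested genes. Of all tested genes 4.33% rose and 5.35% fell in that comparison. Gata2, a zinc finger factor, was at 0 in both male libraries and at 45.04 and 33.4 RPKM in the female ones (adjusted p = 4.03e-05). Msx1 was at 45.7 and 44.6 RPKM in males and 282 and 218 RPKM in females (2.43 ± 0.46, adjusted p = 0.00424). Msx2 was at 29.1 and 19.6 RPKM in males and 136 and 143 RPKM in females (2.50 ± 0.33, adjusted p = 0.000329). Bambi was at 36.9 and 41.4 RPKM in males and 138.5 and 119 RPKM in females (1.69 ± 0.21, adjusted p = 0.000203). Gata3 (3.20), Hand1 (2.69) and Dlx3 were the others. Smad6 and Smad7, the inhibitory SMADs, did not pass (0.90 and -0.17). Of 7 feedback inhibitors, a list that shares Bambi, Smad6 and Smad7 with these targets, only Bambi passed. None of 6 tested extracellular antagonists passed, with Fst, which encodes follistatin, at -1.70 (adjusted p = 0.308).

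**Figure D4:**
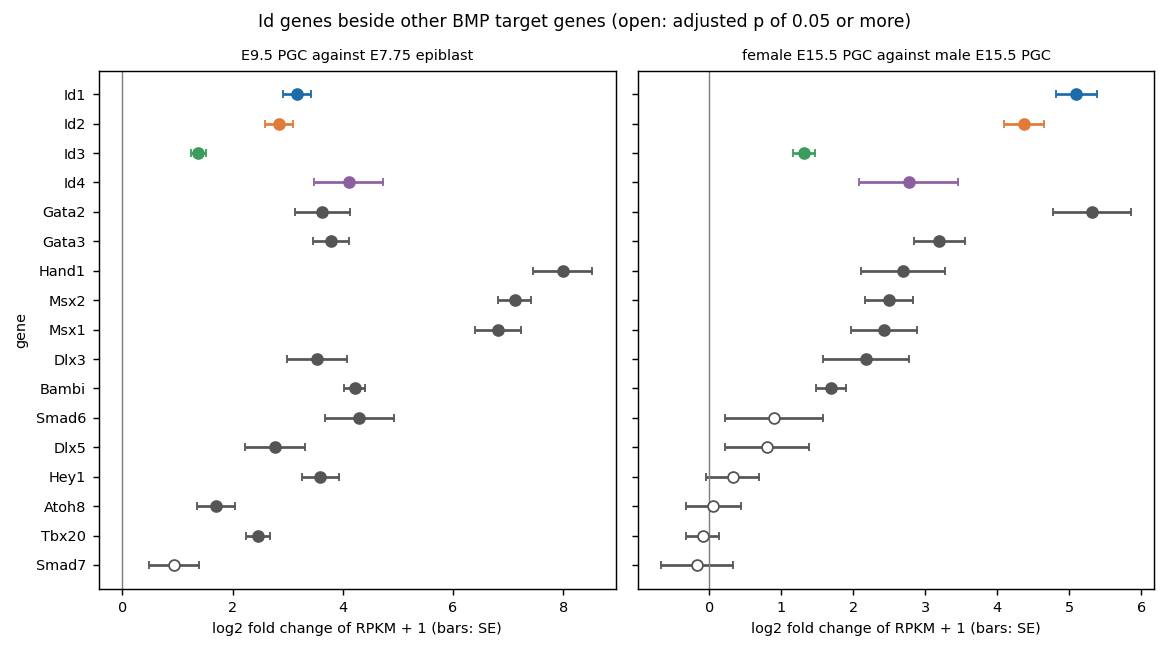
Log2 fold change of RPKM + 1 with its SE for the Id genes and 13 other BMP target genes, at E9.5 against E7.75 epiblast (left) and in female against male E15.5 PGC (right), with open points for an adjusted p of 0.05 or more. At E9.5, 12 of the 13 rose (16.3% of all tested genes), and at E15.5 7 of the 13 were higher in females (4.33% of all tested genes).

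The E proteins, the partners that ID proteins hold back, varied less in sum than the Id genes. Summed over Tcf3, Tcf4 and Tcf12, their RPKM lay between 84.7 and 202 in all 18 libraries, while the summed Id RPKM ranged from 294 to 3050. The ratio of Id to E protein transcripts was 4.06 to 5.35 in E7.25 epiblast, 1.86 to 2.75 in E7.75 epiblast, 12.6 and 6.17 at E9.5, and 20.4 and 10.5 at E10.5. It was 4.69 and 6.41 at E11.5, 5.20 and 6.63 at E12.5, 4.12 and 3.93 in male E15.5 and 13.6 and 22.2 in female E15.5. The ratio was lowest at E7.75, and both libraries of E10.5 and of female E15.5 lay above all libraries of the other groups except E9.5 replicate 1. At E9.5 only replicate 1 was high, and replicate 2 lay within the range of E11.5 and E12.5. Both parts of the ratio moved. Tcf12 rose at E9.5 by 1.38 (adjusted p = 0.00406), from 13.3 to 19.6 RPKM at E7.75 to 38.6 and 54.1 RPKM. At E10.5 Tcf12 fell by 1.83 (adjusted p = 0.00105), to 8.23 and 17.7 RPKM, and Tcf4 by 0.95 (adjusted p = 0.0123), and the lowest E protein sum of the series, 84.7 RPKM, stands in the E10.5 library with the ratio of 20.4. Tcf12 was also higher in female E15.5 than in E12.5 PGC, by 1.26 (adjusted p = 0.0182). These are transcript levels and say nothing of the proteins. In female against male E15.5 PGC, Tcf3 (-0.02), Tcf4 (-0.07) and Tcf12 (0.79, adjusted p = 0.172) did not pass.

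**Figure D5:**
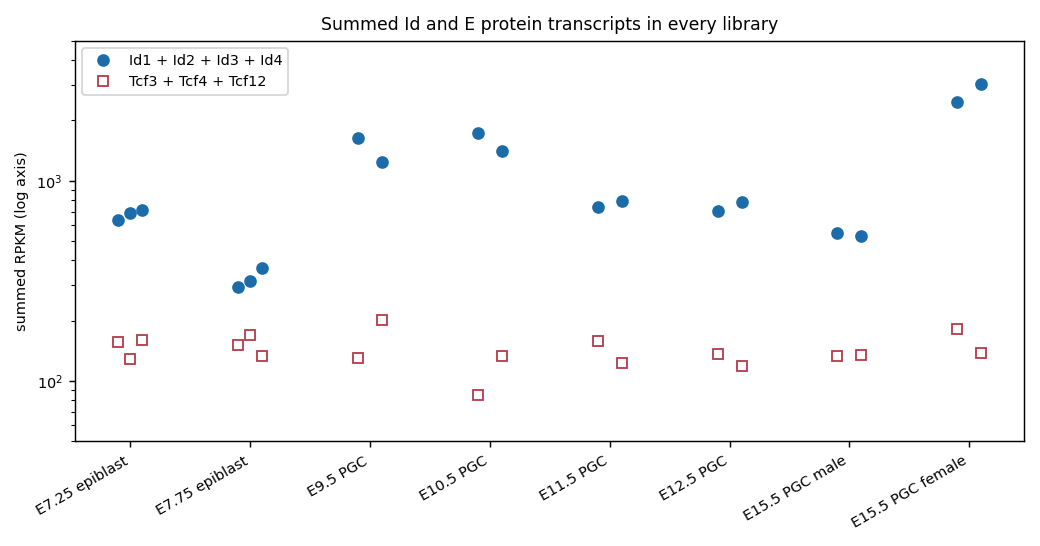
Summed RPKM (log axis) of the 4 Id genes (filled circles) and of the E protein genes Tcf3, Tcf4 and Tcf12 (open squares) in every library, by group. The E protein sum lies between 84.7 and 202 RPKM, and the Id sum spans 294 to 3050 RPKM.

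Of 33 tissue-restricted helix-loop-helix factors, 19 were tested. At E9.5, 11 rose and 1 fell, where 16.3% of all tested genes rose and 11.3% fell, the largest rise again being that of Hand1. Of the 33 factors, 14 averaged 1 RPKM or more at E9.5 and 4 at E7.75. This count of rises is thus also partly set by the filter. Tcf15, a factor first known from somites, peaked at E10.5 with 221 ± 18.7 RPKM. In female against male E15.5 PGC 4 rose (Figla, Hand1, Scx and Tcf24) and Sohlh1 fell by 2.39 (adjusted p = 0.000132). Over all tested genes 4.33% rose and 5.35% fell there. Figla encodes an oocyte factor and Sohlh1 a factor of germ cell differentiation, and Sohlh1 was at 6.06 and 4.74 RPKM in males and 0.435 and 0.0292 RPKM in females. Sohlh2, its close relative, was high in both sexes, with 178 ± 12.5 RPKM in males and 251 ± 3.23 RPKM in females (0.49, adjusted p = 0.712). Of 7 tested Hairy and Hey factors, which repress transcription downstream of Notch and BMP, Hey2 was higher in females by 2.08 (adjusted p = 0.0108).

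Over the 18 libraries the likeness of each gene to an Id gene was measured as the Pearson correlation of log2(RPKM + 1), over the 9015 genes that averaged 5 RPKM or more. These points share groups and, within a group, cell type and day, so the values are descriptions. Id1 and Id2 were each the gene most like the other, with a correlation of 0.981. Next came S100a16 (0.873 to Id1 and 0.919 to Id2), Hsd17b10 (0.863 and 0.818) and Gata2 (0.815 and 0.798), with Asrgl1 (0.798) in the fifth place for Id1 and Dcps (0.798) for Id2. Id3 was less like Id1 (0.582) and Id2 (0.585), and its nearest genes were Glud1 (0.933), Sp9 (0.926), Mpc1 (0.924), Sncg (0.917) and Cd9 (0.915). Id4 was nearest to Cdx1 (0.918), Hand1 (0.903), LOC102553814 (0.898), Ascl4 (0.894) and Nfkbia (0.891), and had 0.772 with Id3, 0.669 with Id2 and 0.610 with Id1.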

How the data were processed

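Per the labels' protocols, RNA for the 18 libraries was extracted with PicoPure and amplified with SMART-Seq v4. The values deposited by the authors are RPKM in 1 table of the series, made with TopHat2 2.1.0 and Cufflinks 2.2.1 on rn6 after cutadapt 1.14, tools named in the submitters' processing notes. RPKM divides by the mapped total of a library, so abundant genes that change shift the others. Values were analysed as log2(RPKM + 1) with limma 3.58.1 (R 4.3.3), in 8 groups with all libraries sharing 1 estimate of the spread that follows the mean level (10 residual degrees of freedom). The sex comparisons in epiblast used 10 groups (8 residual degrees of freedom). The fit was tested on simulated data. Groups come from the sample titles. Columns of samples outside the series numbered 0.

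The members and the 20 gene lists were chosen with earlier results of these data known. The rule for names from a pathway list was its 2 most abundant members and, per comparison, the largest rise and fall among genes averaging 5 RPKM or more in the higher group. Not every name it gives is printed. Other named genes were chosen after their values were seen. Positions of the genes in rn6 and protein sequences were not analysed here. Plots used matplotlib 3.10.9 (Python 3.11.15).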

Additional observations from a re-analysis of the deposited data

Results flagged for a closer look

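The sex difference of the Id genes was not the same in E15.5 PGC and in epiblast. The female minus male log2 difference in E15.5 PGC exceeded that in epiblast by 4.78 for Id1, 4.59 for Id2, 1.07 for Id3 and 4.40 for Id4, and each difference of the differences passed in limma (adjusted p = 7.09e-05, 7.09e-05, 0.0103 and 0.00611). In E15.5 PGC all 4 genes were higher in the 2 female libraries than in the 2 male ones. Epiblast has 1 library labelled female on each day, and 1 library labelled male goes against its label by the Y-linked genes Eif2s3y, Kdm5d and Uty. Without that library the values were 4.77, 4.62, 1.02 and 4.16, and all 4 still passed (adjusted p = 0.000578, 0.000578, 0.0235 and 0.0143). The test was chosen after the E15.5 values had been seen.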

How the results depend on the processing

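Of 1320 alternative values of 52 Id results, 1257 kept their direction and their side of the threshold. Many of these alternatives leave out a library outside the comparison, which cannot change the log2 value. Results that stayed uncalled also count as kept, so the count is no measure of how stable the calls are. A fit to only the libraries compared keeps the log2 changes and has far fewer residual degrees of freedom. Under it these lost their calls: Id1 (-1.94) and Id2 (-1.71) between the epiblast days, Id3 at E10.5 (0.81), Id1 (-1.77), Id2 (-1.62) and Id3 (-0.75) at E11.5, Id2 of averaged E15.5 against E12.5 (0.91), all 4 genes between the E15.5 sexes (5.10, 4.37, 1.31 and 2.77), Id2 of male (-1.27) and Id3 of female E15.5 (0.96) against E12.5. Id4 of female E15.5 against E12.5 (1.80) gained one. A pseudocount of 0.1 ended the Id4 calls of E12.5 against E9.5 (-2.38) and between the E15.5 sexes (3.06) and gave one for Id4 between the epiblast sexes (-3.88), and no filter on low values also ended the former (-2.26). Quantile normalization gave calls to Id1 (-1.21) and Id2 (-0.89) at E10.5 and Id3 of averaged E15.5 (0.37), and ended those of Id3 at E10.5 (0.20) and E11.5 (-0.23). Median ratio scaling turned the uncalled change of Id3 at E12.5 against E11.5 (-0.027). Without a variance trend Id3 lost the call for the difference of the sex differences (1.07, adjusted p = 0.0518). With PGC and epiblast as 2 groups, Id1 (0.67) and Id2 (0.64) lost theirs, as they did without female E15.5 (0.16 and 0.23). The cause was not tested for these settings.

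Leaving out 1 library at a time changed a call or a sign for the following, given as lowest to highest value: between the epiblast days Id3 -0.69 to -0.45 and Id4 -0.32 to 0.76; at E10.5 Id1 -0.99 to -0.41; at E11.5 Id3 -0.84 to -0.66 and Id4 -3.07 to -1.57; at E12.5 against E11.5 Id3 -0.055 to 0.12 and Id4 -0.16 to 1.34. The ranges were -0.0051 to 0.19 for Id3 and -2.35 to -2.16 for Id4 at E12.5 against E9.5, 0.67 to 1.15 for Id2 of averaged E15.5 against E12.5, 2.46 to 3.08 for Id4 between the E15.5 sexes, and -1.17 to -1.09 for Id1 and -1.75 to -0.79 for Id2 of male E15.5 against E12.5. An arm left with 1 library is taken to vary like the others. The replicate block changed no Id call (for Id1 between the E15.5 sexes 5.10, adjusted p = 7.26e-07). Between groups with 2 libraries of the same label, deviations of same-numbered libraries had correlations of -0.133 to 0.0581. These cannot tell whether same-numbered libraries shared a litter, a day or a preparation.

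Counts of all genes that passed moved by over 1.5 times. With only the libraries compared they went from 40 to 9 between the epiblast days, from 4108 to 2204 at E9.5, from 4443 to 0 at E10.5, from 1069 to 56 at E11.5 and from 1072 to 0 at E12.5. They went from 3449 to 1093 at E12.5 against E9.5, from 1439 to 0 between the E15.5 sexes, from 1297 to 333 for male and from 2741 to 1006 for female E15.5 against E12.5. The 3 counts of 0 in limma stand beside 3544, 3707 and 3183 genes at an unadjusted p under 0.05. Averaged E15.5 had 2241, and 908 without E12.5 replicate 2. The epiblast sexes had 9, and 5 with the block to 220 with no filter. The difference of the sex differences had 433, with 217 without E15.5 male replicate 1 and 768 with no filter. Id4 was under 9 RPKM in 5 groups, and 3 libraries of E10.5 and E11.5 were shallow. The effect of depth was not tested.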
